A study of Homo sapiens with 6 samples.

Results

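The baseline transcriptome of 8505C cells treated with a control siRNA was described from the 3 libraries labelled NC, out of 6 libraries in the series, over all 33539 genes of the deposited table. 8505C is an established line of anaplastic thyroid cancer, cells that derive from the thyroid follicular epithelium. The NC cells were grown in RPMI-1640 with 10% fetal bovine serum and received the negative control siRNA (si NC) for 24 h. Total RNA was taken with TRIzol, polyadenylated RNA was sequenced in pairs of 150 bases, and the 3 libraries carry the same batch label. No untreated library entered the description, so every level below is that of cells exposed to the control siRNA, and the line is a model from 1 tumour grown in culture without the stroma and vessels of a thyroid. The labels do not say whether NC1, NC2 and NC3 were separate cultures, so their spread may be technical.

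A thyroid follicular cell is set up by the transcription factors NKX2-1, PAX8, FOXE1 and HHEX, which together maintain thyroglobulin (TG), the iodide transporter (SLC5A5) and the thyrotropin receptor (TSHR). Anaplastic thyroid cancer is known for the loss of these products, for spindle-shaped cells that mix epithelial keratins with vimentin, and for rapid division and invasion. Levels are given as FPKM, fragments per kilobase of gene scaled to library size, which makes genes of different length comparable. A gene was called expressed at an FPKM of at least 1 in each library.

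The 3 libraries had 62671647, 60576788 and 62385310 counts. The expressed genes numbered 11200, or 33.4% of the rows, and 10097 of them were protein-coding. Those 10097 were 60.9% of the protein-coding rows, and counts of expressed protein-coding list members below stand beside that share. Another 2818 rows had 0 counts in each NC library, a number that becomes 4786 without NC1, 4402 without NC2 and 4447 without NC3. Each row of the table had a count in at least 1 of the 6 libraries. The 2818 rows are therefore in the table only through counts in a treated library, and they are not the full set of genes at 0 in NC. Above 1000 FPKM lay 17 genes. Pearson's r of log2 FPKM across the expressed genes, which are not independent replicates, lay between 0.988 and 0.992 for the 3 pairs. Each of the 3 libraries stood apart in a set of genes that is described further on. NC1 did so in long transcripts of low GC content and NC2 in several endothelial and inflammatory genes of mostly low level. NC3 had lower levels of a group of mostly rare genes. Values of single genes under 1 FPKM often turned on 1 library, and they are given by library where they matter.

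By FPKM the mitochondrial genome came first, and ribosomal proteins, glycolysis and the cytoskeleton supplied many of the leading nuclear genes. Of all counts, 5.15%, 4.93% and 4.99% lay in genes of the mitochondrial genome, with MT-CO1, a core subunit of cytochrome c oxidase, first at 6826 ± 470 FPKM (SD, n = 3). MT-ATP8, MT-ND4, MT-CO2 and MT-ND4L followed at 5941, 5860, 5735 and 5337 FPKM. Among nuclear protein-coding genes outside the ribosome, the glycolytic enzyme GAPDH was the most abundant, at 2013, 1911 and 2116 FPKM in NC1, NC2 and NC3. The actin-binding peptide TMSB10 was next at 1816, 1938 and 1861 FPKM, and the enolase ENO1 followed at 1215, 1185 and 1256 FPKM. GAPDH and TMSB10 changed places in NC2, and both lay above ENO1 in each library.

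The secreted collagenase MMP1, which cuts fibrillar collagen, ranked 4th in this class, with 1133, 1201 and 1256 FPKM, level with ENO1 in NC2 and NC3. No other gene for a matrix enzyme came near it: the fibril-modifying oxidase LOXL2 stood at 128 FPKM and the stromelysin MMP3 at 12.7 FPKM. The ferritin light chain FTL (987 ± 25.3 FPKM; SD, n = 3), the elongation factor EEF1A1 (904 ± 22.9), the actins ACTB (901 ± 43.4) and ACTG1 (751 ± 36.9), the elongation factor EEF2 (734 ± 30.8) and the intermediate filament protein VIM (671 ± 29.1) came next. LDHA, which reduces pyruvate to lactate, had 672, 665 and 667 FPKM and was the steadiest of the 25 leading genes, with an SD of 3.38. The remaining members of the 25 were PFN1, HSP90AB1, TUBA1B, TUBB, HMGA1, TUBB4B, EEF1G, UBB, KRT7, ALDOA, TMSB4X, MIF, SMS and PKM, from 645 FPKM for the actin monomer binder PFN1 down to 333 FPKM for the pyruvate kinase PKM. HMGA1, a chromatin protein of embryonic and tumour cells, stood among them at 562, 563 and 586 FPKM. The polyamine enzyme SMS reached 377, 356 and 360 FPKM.

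**Figure D1:**
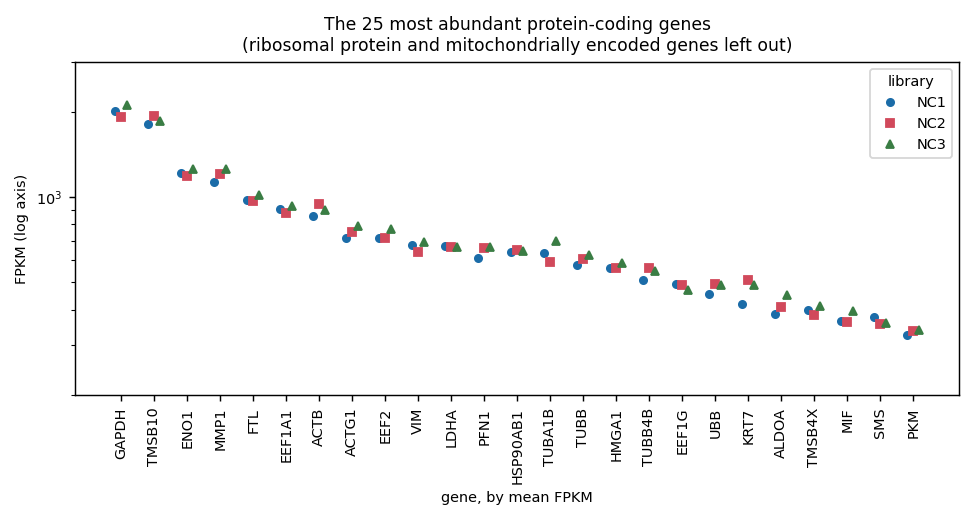
FPKM on a log axis of the 25 protein-coding genes with the highest mean, outside ribosomal protein and mitochondrially encoded genes; each point is 1 library (blue circle NC1, red square NC2, green triangle NC3). GAPDH, TMSB10, ENO1 and MMP1 lie above 1000 FPKM in all 3 libraries, and the libraries lie close together for each gene.

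A ranking by counts, which favours long transcripts, shared 15 of the 25 genes. The 100 genes with the highest counts took 20.4%, 20.2% and 20.8% of a library, and the 1000 highest took 51.3%, 51.4% and 51.6%. The 10 most abundant genes that are neither protein-coding nor on the mitochondrial genome were led by MTATP6P1 at 947 FPKM. A row without a gene symbol came next, ahead of EEF1A1P5 at 362 FPKM and RPS2P5 at 307 FPKM. MTATP6P1, EEF1A1P5 and RPS2P5 are pseudogenes whose parents are among the most abundant genes. Such copies share reads with their parents, and both values are uncertain. Among well-known long non-coding RNAs, NORAD, a cytoplasmic regulator of genome stability, was highest at 75.5, 78.0 and 73.2 FPKM. SNHG1 (31.2 ± 1.79) and GAS5 (25.2 ± 0.703), which host small nucleolar RNAs, followed.

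Cytosolic ribosomal proteins were abundant almost throughout: 84 of 88 members were expressed, 57 exceeded 100 FPKM, and the family took 5.79%, 5.81% and 6.08% of the counts. RPS2 led at 857 ± 40.1 FPKM (SD, n = 3), followed by RPL7A (800 ± 35.2), RPS12 (793 ± 23.4), RPL8 (728 ± 38.6) and RPLP0 (434 ± 17.4). Transcripts of this class are known to begin with a C followed by pyrimidines, the terminal oligopyrimidine tract through which growth signals act on their translation. The starts of RPL7A, RPS12 and RPLP0 and of the elongation factors EEF1A1 and EEF2 are shown because these 5 genes are among the most abundant messages and belong to that class. Each window holds the 15 bases before and the 15 bases after the RefSeq start in GRCh38.p14, and capitals mark the first C followed by 5 or more pyrimidines.
RPL7A chr9:133348203-133348232 plus strand: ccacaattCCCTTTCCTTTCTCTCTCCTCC
RPS12 chr6:132814554-132814583 plus strand: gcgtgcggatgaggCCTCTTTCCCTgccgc
RPLP0 chr12:120201097-120201126 minus strand: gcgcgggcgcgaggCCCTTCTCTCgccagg
EEF1A1 chr6:73521018-73521047 minus strand: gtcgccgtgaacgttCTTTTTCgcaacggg
EEF2 chr19:3985449-3985478 minus strand: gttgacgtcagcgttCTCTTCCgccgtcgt

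The run lay at or next to the annotated start in RPS12, RPLP0, EEF1A1 and EEF2 and began upstream of it in RPL7A. Such a run within the last base before and the first 7 bases after the start occurred in 5.51% of 27305 RefSeq promoters. With 69 of 87 ribosomal protein rows matched to a promoter, which is under 80%, no share over the family is given. The low values in the family belonged to RPS29 (7.59 FPKM), to RPL9 (32.2 FPKM) and to forms with a tissue-restricted pattern such as RPL3L (0, 4 and 0 counts) and RPL10L (0, 3 and 0 counts). Because ribosomal protein genes have many processed copies in the genome, their levels depend on how the authors assigned reads with several matches.

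In families of isoenzymes and structural paralogs, 1 member usually carried nearly all of the RNA. ALDOA held 99.6% of the summed aldolase FPKM, ENO1 97.4% of enolase and PKM all but a trace of pyruvate kinase, against 4, 0 and 2 counts for the liver form PKLR. LDHA held 74.7% ± 0.493 (SD, n = 3) of lactate dehydrogenase and LDHB, which favours the reverse reaction, 25.3% ± 0.497. The hexokinases HK1 (54.8%) and HK2 (43.9%) were nearer to each other. SLC2A1, the basal glucose transporter, held 71.4% of its family at 36.9 FPKM, with SLC2A3 at 7.58 FPKM. The lactate exporter SLC16A3 stood at 39.2 FPKM and its paralog SLC16A1 at 24.6 FPKM, with their shared chaperone BSG at 135 FPKM. A glycolytic set of the broadly expressed forms, with both lactate dehydrogenase chains, was therefore present in each library.

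The cytoskeleton was as selective. MYH9 held 98.1% of non-muscle myosin heavy chain, ACTN4 84.3% of alpha-actinin, CAV1 90.8% of caveolin and LGALS1 93.6% of galectin. TMSB10 outweighed TMSB4X, at 73.4% against 15.7% of the thymosin list. TUBA1B held 71.5% of alpha-tubulin, while TUBB (45.6%) and TUBB4B (41.1%) shared beta-tubulin. LMNB2 held 47.6% of the lamins, LMNA 29.7% and LMNB1 22.7%. MT2A, a zinc-binding metallothionein, held 95.7% of its family. Muscle forms were low: ACTA1, ACTC1 and ACTG2 were each under 0.3 FPKM, ACTA2 at 0.728 and MYH3 at 0.901, 1.36 and 1.30 FPKM, and TNNT1, the slow skeletal troponin T, was the exception among 21 sarcomere proteins at 30.2, 27.2 and 32.4 FPKM.

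The follicular programme was reduced to 2 of its transcription factors. NKX2-1 stood at 41.8, 46.8 and 47.2 FPKM and HHEX at 4.34, 5.03 and 5.27 FPKM. PAX8 had 0.777, 0.596 and 0.257 FPKM, and FOXE1 had 80, 66 and 7 counts, or 0.324, 0.276 and 0.0268 FPKM. Both were lowest in NC3 and under the threshold in every library. TG, the storage protein of the hormone, had 5, 2 and 0 counts, and TSHR, SLC5A5 and IYD, which recycles iodide, had 0 counts in each library, where a count of 0 allows up to 3 counts, or a CPM (counts scaled to library size) of 0.0495 in the smallest library, and up to 12 counts or a CPM of 0.198 where 4 counts stand for 1 molecule. The other members, SLC26A4, SLC26A7, DUOX1, DUOX2, DUOXA1, DUOXA2, DIO1 and DIO2, lay under 0.1 FPKM on average, so 2 of 17 thyroid genes were expressed. The summed list was 47.5, 52.9 and 53.1 FPKM, and NKX2-1 made up most of it.

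Keratins and vimentin were abundant together. KRT7, a keratin of simple epithelia, had 418, 511 and 488 FPKM, its partner KRT18 153, 160 and 173 FPKM and KRT8 112, 114 and 125 FPKM. KRT14, a basal-layer keratin, stood at 31.0 ± 2.09 FPKM (SD, n = 3) although its usual partner KRT5 had no row. These 4 were the only epithelial markers over 10 FPKM, and 14 of the 20 listed were not expressed, 2 of which had no row. CDH1, the epithelial adhesion receptor, had 22, 11 and 4 counts, and EPCAM stood at 0.762 ± 0.248 FPKM. The epithelial regulators GRHL2 (0, 0 and 7 counts), OVOL2 and ESRP1 were at trace.

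On the mesenchymal list, 11 of 14 members were expressed. VIM stood at 671 FPKM, the matrix glycoprotein SPARC at 177 ± 9.98, fibronectin (FN1) at 52.2 ± 3.07 and the cadherin CDH2 at 13.4 ± 0.258 FPKM. CDH2 thus exceeded CDH1 in every library. The transcription factors TWIST1 (5.45 ± 0.333 FPKM), ZEB1 (3.30 ± 0.793), SNAI1 (3.01 ± 0.643), ZEB2 (2.19 ± 0.0432) and SNAI2 (2.08 ± 0.106) were low but present in each library. The cadherin family was led by CDH4 at 16.4, 19.5 and 18.1 FPKM, and CDH5, the adhesion receptor of endothelial junctions, was the third at 5.43, 5.64 and 5.88 FPKM.

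**Figure D2:**
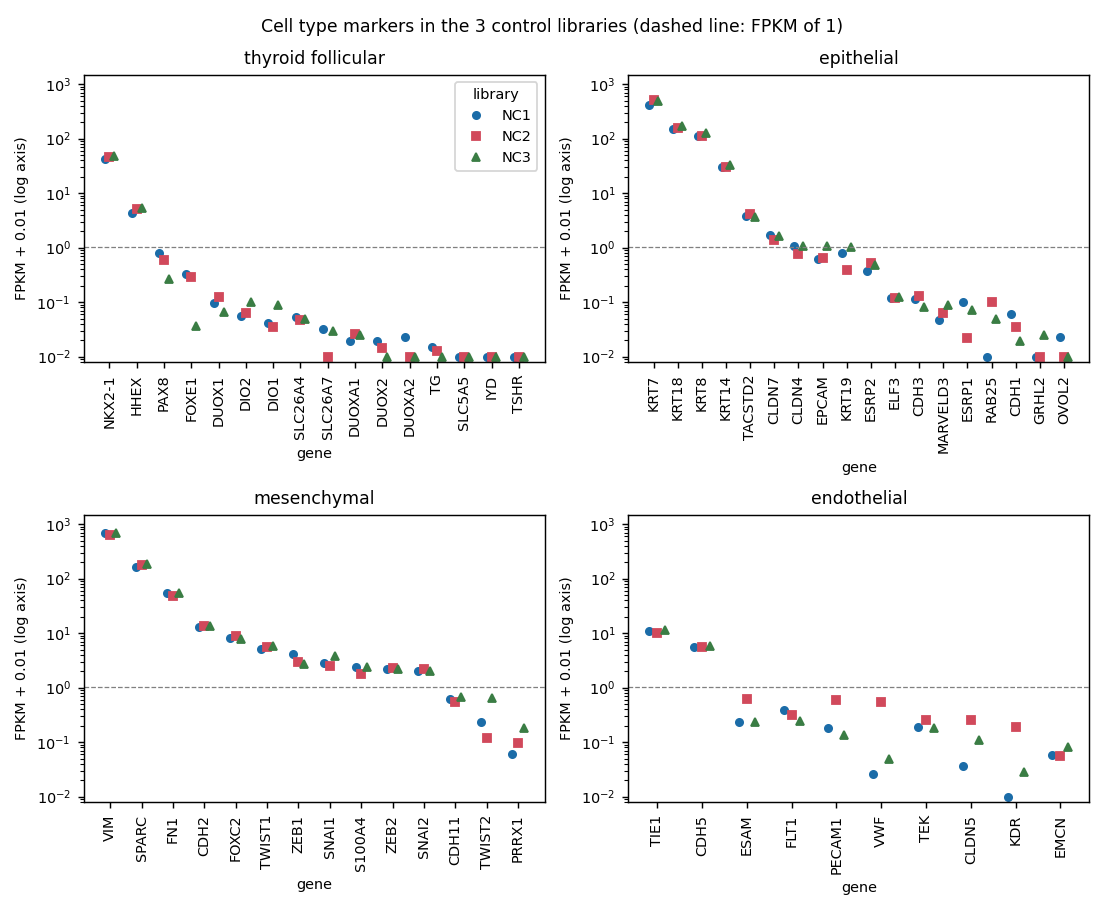
FPKM plus 0.01 on a log axis of the listed markers of 4 cell types that have a row; each point is 1 library and the dashed line marks an FPKM of 1. NKX2-1 and HHEX lie above the line among thyroid genes, the keratins KRT7, KRT18, KRT8 and KRT14 and the mesenchymal genes VIM, SPARC and FN1 lie well above it, and VWF, PECAM1, CLDN5 and KDR lie highest in NC2.

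Markers of other cell types were at or near 0 with few exceptions. No fibroblast marker of 10 was expressed: COL1A1 stood at 0.995 FPKM, DCN at 0.0325 FPKM, and PDGFRA had 6, 0 and 19 counts. Of 13 haematopoietic markers 3 were expressed, the lysosomal CD68 at 9.33 FPKM, LYZ at 2.50 and CD14 at 1.57 FPKM, and the leukocyte receptor PTPRC had 4, 7 and 0 counts. No marker of C cells, hepatocytes or pluripotent and germ cells was expressed. Among 10 neural markers only TUBB3 (10.9 FPKM) was expressed, among 6 melanocytic ones only MITF, and among 7 of smooth muscle only TAGLN (1.31, 1.75 and 1.22 FPKM). In RNA from a culture, fewer cells of a type and less RNA per cell cannot be told apart.

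Of 55 receptor tyrosine kinases, 18 were expressed and the AXL receptor stood far above the rest at 214, 218 and 220 FPKM. EPHA2 followed at 61.9, 75.1 and 73.6 FPKM, then MET (22.7 ± 1.59; SD, n = 3), EGFR (16.3 ± 0.369), PTK7 (13.3 ± 0.754) and TIE1 (10.7 ± 0.799), a receptor of endothelial cells. RET, the kinase of C cells that is rearranged in papillary thyroid cancer, had 4, 4 and 3 counts, KIT stood at 0.0540 FPKM, and FLT3 had no row. Among 36 ligands, KITLG was highest at 28.2, 25.01 and 20.97 FPKM. PGF, HBEGF, VEGFB and BDNF, at 17.0, 15.6, 13.5 and 12.5 FPKM, were the other ligands over 10. The ligand of KIT was therefore more abundant than the receptor itself. In the RAS cascade, NRAS (21.6 FPKM), HRAS (19.98) and MAP2K1 (20.7) exceeded BRAF (0.871).

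Division genes were high. CDC20, which activates the anaphase-promoting complex, stood at 200, 221 and 225 FPKM, the CDK-binding CKS2 at 196, 202 and 227 FPKM and the replication clamp PCNA at 143, 146 and 153 FPKM. All 25 replication genes and 24 of 25 genes of the G2 and M phases were expressed, and the 6 MCM helicase genes each exceeded 10 FPKM. CCND1, the D-type cyclin of growth signals, had 110, 149 and 123 FPKM, while CCND2 had 0.420, 0.157 and 0.0776 FPKM. The brakes of this step were present as RNA: CDKN2A at 18.2, 15.5 and 18.2 FPKM, CDKN2B at 1.23 ± 0.0878 and RB1 at 9.73 ± 1.00 FPKM. MTAP, the neighbour of CDKN2A that is often lost with it, was expressed at 4.98 ± 0.101 FPKM. Of 35 tumour suppressors 32 were expressed, CDH1 being one of the 3 others. RNA levels carry no information on mutations here.

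TERT, the catalytic subunit of telomerase, was expressed at 1.37, 1.34 and 1.30 FPKM. Its RNA partner TERC, which lacks a poly(A) tail, had 0 counts in each library. MYC was the only expressed MYC gene, at 17.6, 18.4 and 15.1 FPKM, with MYCL at 0.503 FPKM and no row for MYCN. Among replication-dependent histones, whose RNA also lacks the tail, 13 of 66 were expressed, against 9 of 13 variant histones. H2BC12, at 48.01, 52.2 and 53.7 FPKM, was the histone of the former class that exceeded 10 FPKM.

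Beside MMP1, many matrix and adhesion genes were expressed at lower levels. Of 38 matrix and secreted genes 32 were expressed, with TGFBI, an integrin-binding matrix protein, at 259, 281 and 310 FPKM, LOXL2 at 128 ± 4.89 (SD, n = 3), the plasminogen activator PLAU at 105 ± 3.51 and the inhibitor TIMP1 at 103 ± 2.56 FPKM. The collagen cross-linker LOX stood at 75.1 ± 2.73 FPKM. Of 12 laminins 9 were expressed, led by LAMA5 (69.9 FPKM) and LAMC1 (41.5), and of 43 collagens 11, led by COL4A2 (20.4) and COL6A1 (16.7). The fibrillar collagen chain COL1A2 had 0, 16 and 37 counts. Integrins were led by ITGA6, a laminin receptor, at 137, 117 and 115 FPKM, followed by ITGA3 (53.1) and ITGB1 (52.1). RNA of laminins and of the laminin receptor ITGA6 was thus abundant, whereas COL1A1 and COL1A2 were not expressed. COL1A1 passed 1 FPKM in NC3 alone (0.804, 0.807 and 1.37), and COL5A1, another fibrillar chain, exceeded 10 FPKM on average. MMP9 had 18, 0 and 4 counts, and MMP14, the membrane collagenase, 13.1, 12.1 and 13.3 FPKM.

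Immediate-early and stress genes were present in unequal measure. CCN2 (269 ± 12.1 FPKM; SD, n = 3) and CCN1 (207 ± 10.6), known targets of YAP and TEAD, led the list, and all 4 TEAD factors were expressed. Of the AP-1 subunits, FOSL1 (145 ± 8.55) and JUN (57.9 ± 2.26) were high and FOS was at 0.806 ± 0.0251 FPKM. All 20 hypoxia genes were expressed, with CA9, a carbonic anhydrase of hypoxic tumours, at 137, 103 and 136 FPKM and BNIP3 at 89.0 ± 2.26 FPKM. All 19 genes of the integrated stress response were expressed, PSAT1 (149 FPKM), ATF4 (144) and SLC7A5 (69.2) highest, as were all 23 of cholesterol synthesis. Of 25 interferon-stimulated genes 15 were expressed, and IFI6 at 10.8 FPKM was the highest. Of all protein-coding rows 60.9% were expressed, and the lists were chosen with earlier results of these data known. The activity of a pathway is therefore not read from these counts of members.

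Genes of immune recognition were split by class. Of HLA class I genes, B2M, the shared light chain, stood at 153, 146 and 171 FPKM, HLA-E at 51.8 ± 4.10, HLA-C at 21.4 ± 0.925 and HLA-B at 2.53, 3.19 and 2.45 FPKM. HLA-B was thus far under HLA-C in each library. No gene of 13 in class II was expressed, and their regulator CIITA stood at 0.167 FPKM. Of 17 checkpoint ligands 8 were expressed, with CD274, the ligand of PD-1, at 29.9, 36.3 and 33.5 FPKM and the poliovirus receptor PVR at 24.4 ± 2.72 FPKM. Among cytokines, MIF (374 FPKM) and TGFB1 (23.9) were highest, IL18 had 20.9 and CXCL8 7.66, 16.3 and 8.98 FPKM, and none of 21 interferon genes was expressed.

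Germ-line antigens of the X chromosome were expressed in part. Of 12 MAGE-A genes 7 were expressed: MAGEA3 at 52.1, 58.0 and 57.5 FPKM, MAGEA6 at 35.9, 40.2 and 40.1 and MAGEA12 at 28.9, 31.2 and 33.5 FPKM, with MAGEA1 at 13.3 ± 0.338 (SD, n = 3). MAGEA4 had 5, 0 and 4 counts and MAGEA8 had 0, so neighbours of 1 family differed widely. MAGEB2, the expressed one of 14 MAGE-B and MAGE-C genes, reached 17.5 FPKM, and of 33 GAGE, PAGE, XAGE and SSX genes 13 were expressed, led by GAGE2A (19.9) and PAGE5 (15.1). PRAME, a frequent tumour antigen, had 40, 17 and 8 counts. Copies within the MAGEA3 and MAGEA6 pair and within the GAGE cluster are near identical, and their values cannot be separated with certainty.

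Some single genes stood out in families that were otherwise near 0. CYP24A1, which breaks down active vitamin D, had 99.1, 103 and 112 FPKM, the highest of 53 cytochrome P450 genes, of which 7 were expressed. The vitamin D receptor VDR stood at 1.94 ± 0.300 FPKM (SD, n = 3). OR2W3 (17.8 FPKM), OR2T8 (3.70), OR51B5 (2.64) and OR51B4 (2.30) were the 4 expressed olfactory receptors of 380, and 306 had no row. GATA2 (13.5 FPKM) and GATA6 (1.44) were the expressed GATA factors, and PAX9 (2.19) the expressed PAX factor. Of 39 HOX genes HOXA5 alone passed, at 1.06, 1.24 and 1.24 FPKM. NR2F2 (18.7, 21.6 and 19.8 FPKM) and NR2F1 (17.4) led 48 nuclear receptors, with the thyroid hormone receptor THRA at 5.37 and THRB at 0.148 FPKM.

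Most families used by every cell had few gaps: 78 of 78 mitochondrial ribosomal proteins, 36 of 39 proteasome subunits, 37 of 37 complex I subunits, 12 of 12 subunits of RNA polymerase II, 13 of 13 of eIF3 and 8 of 8 of the chaperonin CCT were expressed. Members at 0 in such families were forms with a restricted pattern, ATP5MGL of the ATP synthase and ATP6V1B1 of the V-type ATPase, a family with more gaps, of which 14 of 23 were expressed. At the other end, 0 of 27 taste receptors, 0 of 45 defensins and 7 of 94 genes with a potassium channel symbol were expressed. The zinc finger genes named ZNF lay between, with 233 of 509 expressed at a median of 1.06 FPKM.

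**Figure D3:**
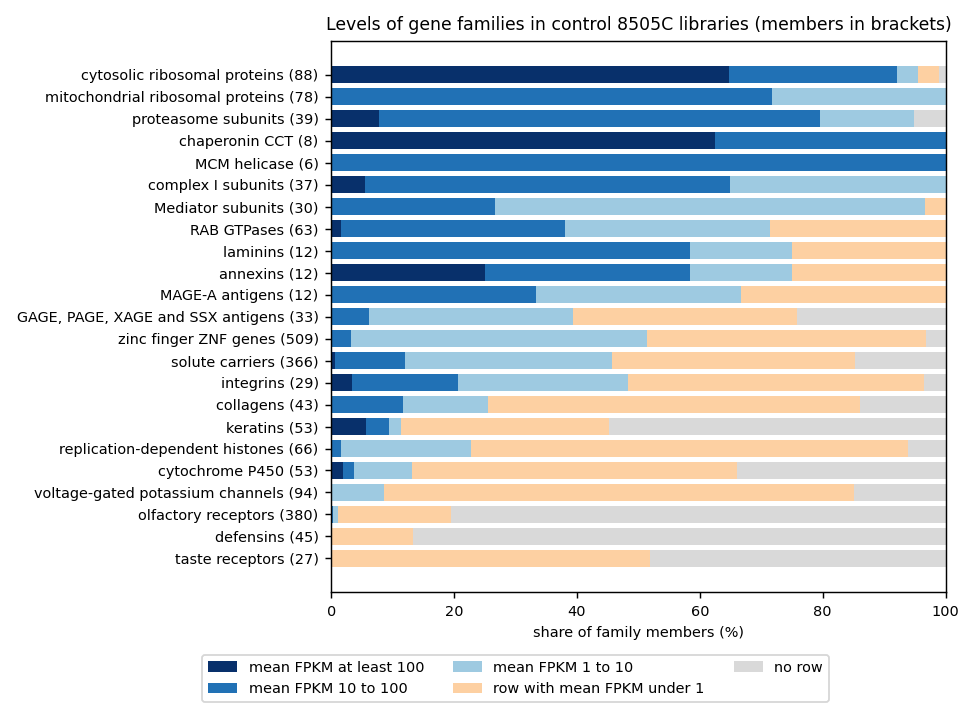
Share of the members of 23 gene families at each level of mean FPKM over the 3 NC libraries, with the number of members in brackets and grey for members with no row. Ribosomal proteins and the chaperonin hold most of the dark blue, and olfactory receptors, defensins and taste receptors are almost wholly grey or orange.

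Neighbouring genes at 0 were rare among the rows of the table and frequent once genes with no row were counted. Among rows of the table, 1 run of at least 5 neighbouring protein-coding genes was at 0. Counting also protein-coding genes of GENCODE 29 with no row, 102 runs held 889 genes. The longest held 65 genes, from OR4B1, on chromosome 11 between 48216810 and 57191717 of GRCh38, and 27 runs held olfactory receptors among their first 8 genes. A run of 35 on chromosome 21 (30165564 to 31038476) held claudin 17, claudin 8 and keratin-associated proteins, and a run of 14 on chromosome 19 (54497879 to 54966312) held leukocyte receptors of the LILR and KIR families. Every gene in the runs of 65, 35 and 14 had no row, so none of them was a row at 0 counts. A gene with no row had 0 counts or was not part of the table for another reason, which cannot be told apart here.

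Median transcript length differed between the classes of level. FPKM is divided by gene length, so the classes are not independent of length, and the part of this scaling was not tested. The longest coding transcript in GENCODE 29 had a median of 1758 bases in the 251 genes over 100 FPKM, 2822 in the 3491 genes of 10 to 100 FPKM and 3824 in the 6631 genes of 1 to 10 FPKM. The 5720 genes above 0 and under 1 FPKM had a median of 3036 bases and the 479 at 0 one of 2173, so length was greatest in the middle class. The class at 0 holds only genes with a count in a treated library, so its values do not stand for all silent genes. Median GC content lay between 47.6% and 51.9% in the 5 classes. Promoters of 78.5% of protein-coding genes were matched, which is under 80%, so a comparison of promoter content by level is void and no value is given.

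Between the NC libraries, many genes differed by more than counting error. An index-of-dispersion test (chi-square with 2 degrees of freedom, adjusted by Benjamini-Hochberg over the genes with a mean of at least 20 counts) called 9027 of 17166 genes, or 52.6%, when 2 counts were taken as 1 molecule. Counts of 4 were 2.12 to 2.27 times as frequent as the mean of counts 3 and 5. With 4 counts as 1 molecule the test called 5283 genes, or 30.8%, and this stricter number is used below. Without NC1 the calls were 5149 and 2257 at the 2 settings, without NC2 3644 and without NC3 3696 at the stricter one. The differences were mostly small: the median coefficient of variation was 4.83% in genes over 10000 counts, 6.87% between 1000 and 10000, 13.1% between 100 and 1000 and 28.9% under 100. These values include counting error, which alone gives 1.55%, 3.74%, 10.5% and 31.4% in the same order at 4 counts per molecule. Under 100 counts the median thus did not exceed counting error at that setting, whereas 2 counts per molecule give 22.2%. edgeR's biological coefficient of variation was 0.190 on the deposited counts and 0.118 with counts divided by 4. The share called rose with depth, from 7.74% in the lowest of these classes to 76.0% in the highest, so a count of variable members of an abundant family has to be read against 76.0%. Of 84 ribosomal proteins tested, 61 were called, and of 37 mitochondrially encoded genes 27.

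The deviation of a library followed the GC content of the transcript. In 10070 expressed protein-coding genes, NC1 lay 0.17 above the mean of the other libraries (median log2 CPM) in the 1530 transcripts under 40% GC and fell by 0.083 below it in the 1502 with at least 60%. NC3 ran the other way, with -0.15 under 40% GC and 0.087 at 60% or more, and NC2 stayed between -0.033 and 0.030. Spearman's rho between deviation and GC content across these genes, given as a description, was -0.47 for NC1, 0.089 for NC2 and 0.52 for NC3. Transcripts under 40% GC were also the longest, with a median of 4638 bases against 2495 in the highest class. They were called variable in 58.6% of cases, against 32.8% to 44.2% in the other 5 classes. When library shares were set within 20 classes of GC content, 4229 genes were called, of which 3751 were among the 5283.

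**Figure D4:**
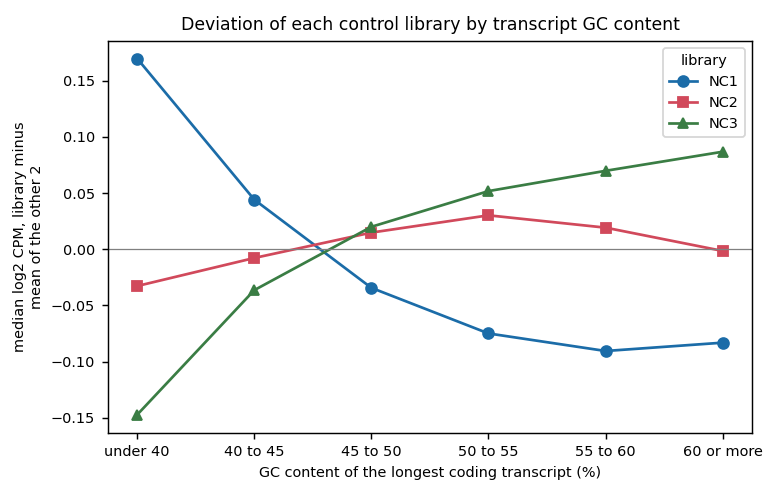
Median difference of log2 CPM between each library and the mean of the other 2, in 6 classes of transcript GC content. NC1 starts at 0.17 and ends below 0, NC3 runs from -0.15 to 0.087, and NC2 stays near 0.

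Several of the widest fold differences at high level lay in overlapping records whose summed counts were nearly equal. PEDS1-UBE2V1, a readthrough record, had 0, 968 and 11821 counts, while UBE2V1, which shares its exons, had 19554, 18126 and 9127. Summed over the UBE2V1 locus, the counts were 23425, 23234 and 24904, and the highest library exceeded the lowest 1.07 times. SENP3-EIF4A1 had 30536, 53826 and 10468 counts and EIF4A1, an RNA helicase of translation initiation, 57090, 32603 and 78614, while their summed CPM differed by 1.02 times. BLOC1S5-TXNDC5 had 0, 4274 and 0 counts and the TXNDC5 locus a ratio of 1.07. Of 86 tested genes with a readthrough name 17.4% were called with at least a 2-fold range at 1 FPKM or more, against 0.816% of the 10055 genes that overlap no other row. Among wide differences in rows that overlap no other were the pseudogene SPCS2P4 (41.9, 10.7 and 8.10 FPKM) and the mitochondrial tRNA MT-TK (76.1, 69.2 and 27.5 FPKM). A similar pair by sequence, HSPA1A and HSPA1B, did differ as a sum, with 3933, 9897 and 9317 counts, or 2.60 times between NC1 and NC2.

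NC1 stood apart more often than the other libraries, in 2481 of the 5283 called genes, or 47.0%, against 1417 for NC2 and 1385 for NC3. The genes in the next 3 paragraphs, other than those on the marker lists, were chosen after their values were seen. Except for CXCL8 and rows said to overlap another, they came from called genes that overlap no other row. In these, 1 library lay at least 2-fold above or below both others. Of these, 55 were high in NC1 alone, with a median transcript GC of 40% and a median length of 6308 bases, against 47.6% and 4040 bases over all 3101 called genes without overlap. CENPF, a kinetochore protein, had 10759, 4161 and 3207 counts, the spindle protein ASPM 7343, 2875 and 2311 and the nuclear pore protein TPR 9519, 4413 and 3506. The kinase ROCK1 had 3553, 1606 and 1326. All were highest in NC1 and lowest in NC3. MALAT1, a long nuclear RNA, stood at 25.2, 12.3 and 11.1 FPKM, and RN7SL2, the RNA of the signal recognition particle, which has no poly(A) tail, at 33.3, 10.7 and 13.8 FPKM. The rows of both overlap another row. GC content and length moved with this set, and the part of either in it was not tested.

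Several endothelial and inflammatory genes were highest in NC2. Of the 10 endothelial markers, 6 were highest in NC2 and 6 were called variable at 4 counts per molecule. These were not the same 6 genes. TIE1 was called and was lowest in NC2, whereas the marker TEK (60, 79 and 58 counts) was highest in NC2 and was not called. The share called was 30.8% of all genes tested, 43.04% at 1000 to 10000 counts, 18.9% at 100 to 1000 and 7.74% under 100. VWF, the von Willebrand factor, had 12, 381 and 28 counts, the adhesion receptor PECAM1 94, 304 and 69, KDR, a VEGF receptor, 0, 79 and 8, CLDN5 7, 58 and 26 and ESAM 47, 122 and 48. TIE1 (5106, 4480 and 5347 counts) and CDH5 (2328, 2317 and 2484) were not highest in NC2. Nor were FLT1 (341, 265 and 206) and EMCN (18, 16 and 26). TIE1 and CDH5 were expressed in each library, and the other markers on the list were under 1 FPKM. The summed FPKM of the list was 17.3, 18.3 and 18.3, and none of the 10 markers was at 0 in all libraries. Its median was 0.245 FPKM with all libraries and 0.161 without NC2. Outside the list, MMRN1, a platelet and endothelial protein, had 0, 168 and 0 counts, CD93 6, 209 and 6, VCAM1 0, 135 and 4 and the chemokine CCL2 52, 412 and 81. The chemokine CXCL8 was also highest in NC2, at a higher level, with 1398, 2858 and 1616 counts, less than 2-fold above NC3. The summed FPKM of the CC and CXC chemokines, led by CXCL8, was 20.4, 39.99 and 23.2. The part of cells or RNA of another kind in these values was not tested.

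NC3 had lower levels than both other libraries in a group of genes, some of them at 0 in NC3. Of genes at least 2-fold under both others in 1 library, 77 were low in NC3, 18 in NC1 and 32 in NC2. Some of the 77 also differed between NC1 and NC2, such as KCNH1 (71, 18 and 6 counts) and CX3CL1 (33, 84 and 0). The sets overlap: VWF and KDR, high in NC2, are among the 18 low in NC1. HAVCR1, a receptor of injured kidney tubules, had 464, 363 and 4 counts, CLDN11 353, 444 and 4, the matrix protein SPP1 907, 677 and 24 and the metallothionein MT1E 491, 327 and 31. FXYD2, a subunit of the renal sodium pump, had 51, 50 and 0, and CXCL5 153, 185 and 0. CD74, the invariant chain of HLA class II, had 88, 124 and 3. The thyroid factors FOXE1 and PAX8 were also lowest in NC3, so that their levels in the thyroid list rest on NC1 and NC2. At a higher level IGFN1, an immunoglobulin-domain protein, had 13.2, 11.4 and 3.39 FPKM. Of the 77 genes 11 had a mean of at least 1 FPKM, and their median was 0.212 FPKM, so the set consists mostly of rare transcripts. The part of RNA from another source in these values was not tested.

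**Figure D5:**
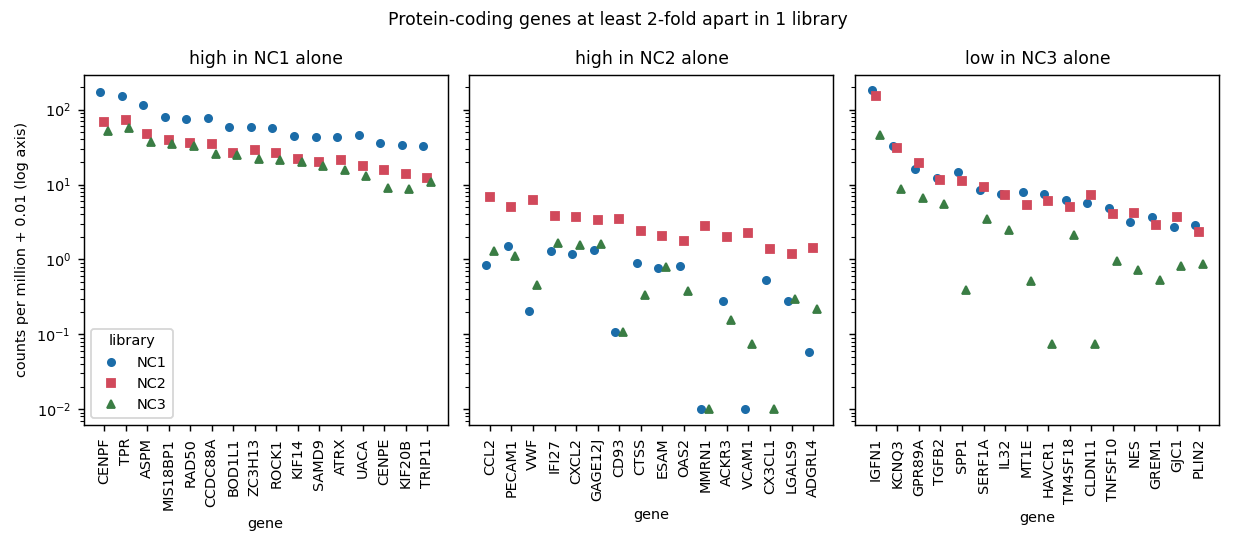
CPM plus 0.01 on a log axis for up to 16 protein-coding genes with the most counts among those high in NC1 alone (left), high in NC2 alone (middle) and low in NC3 alone (right); each point is 1 library. The genes on the left lie mostly above a CPM of 10, whereas those in the middle lie under it, with MMRN1 and VCAM1 at 0 counts in NC1, and HAVCR1 and CLDN11 on the right have 4 counts in NC3.

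Several list members, chosen after their values were seen, varied between libraries. DUSP1, a phosphatase of MAP kinases, had 121, 173 and 177, and NDRG1, a hypoxia-induced gene, 56.4, 40.3 and 56.3. HBEGF had 12.01, 19.2 and 15.7 FPKM. Of 20 hypoxia genes 14 were called, of 25 genes of the G2 and M phases 19, and of 36 tested matrix genes 29. Of 13 tested HSPA heat shock genes 9 were called. These counts stand beside 30.8% of all genes tested, 43.04% of those with 1000 to 10000 counts and 76.0% of those above, and nothing particular to the lists is read from them. By contrast AXL, CDH2, MT2A (237, 240 and 240 FPKM), S100A10 (185, 184 and 181), HK2, TERT and HSP90AB1 (638, 648 and 644) were not called at either setting, and their ranges were narrow.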

How the data were processed

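Polyadenylated RNA of 8505C cells was sequenced in 3 NC libraries (control siRNA, 24 h, pairs of 150 bases), per the labels' protocols. The authors deposited 1 table with counts per gene, as whole numbers without scaling, and with FPKM, normalized by the authors for gene length and library size. The tools fastp, HISAT2 and StringTie and the build GRCh38 (hg38) stand in the list of tools per the submitters' processing notes. Tool versions, the gene annotation, the strand setting and the handling of multiply matched reads: not given in the sources used here. Each row had a count in at least 1 of the 6 libraries.

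Columns were assigned to libraries by the names in the labels. Totals lay between 60576788 and 62671647 counts, so a count of 0 allows 3 counts, a CPM of 0.0479 to 0.0495, or, with 4 counts as 1 molecule, 12 counts, a CPM of 0.191 to 0.198. This floor covers counting error only. Levels were described from FPKM as mean ± SD over 3 libraries, without a test between groups. The treated libraries were not analysed here.

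Variability was tested with an index of dispersion on counts divided by 2 and, as a choice made after seeing the counts, by 4, with libraries scaled by total, a mean of at least 20 counts and an adjusted p threshold of 0.05. What 1 deposited count stands for is not given in the sources used here, and the number of calls depends on it. The chi-square reference holds for large counts and gives the spread between these libraries only. The test was checked on simulated counts. The biological coefficient of variation came from edgeR 4.0.16 with TMM factors in R 4.3.3. Other values came from Python 3.11.15, scipy 1.17.1, numpy 2.4.6 and pandas 2.3.3, and DESeq2 1.42.0 gave alternative size factors. GC content and length are those of the longest coding transcript per gene in GENCODE 29, and promoter windows are from RefSeq on GRCh38.p14.

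The members, gene lists and families were chosen with earlier results of these data known. Named were the 25 protein-coding genes with the highest mean FPKM outside ribosomal protein and mitochondrial genes, the 5 highest of each of those classes, the leading non-coding genes, the highest members and defining absent members of each list, all members of short lists and paralog lists, and the most variable genes (the 15 widest log2 ranges of FPKM + 0.1 at a mean of at least 1 and of at least 10). Other list members named beyond these were chosen after their values were seen. Alternatives varied the FPKM threshold, the zero rule, the ranking scale, scaling, filters, pseudocount, counts per molecule, GC classes and the libraries included. Some members of the lists are not reported here.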

Additional observations from a re-analysis of the deposited data

How the results depend on the processing

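The number of expressed genes stayed within 1.5 times of 11200 under every alternative tried, between 9365 and 14629. The number at 0 did not: 2818 became 4815 with at most 2 counts over the libraries, 11836 with FPKM under 0.1 in each, and 4402 to 4786 with 1 library left out, where fewer libraries make a 0 easier. By FPKM in place of counts, the shares of the 10, 100 and 1000 most abundant genes moved from 6.46% to 18.6%, from 20.5% to 37.0% and from 51.4% to 64.5%, and 15 of the 25 leading genes were shared with a ranking by CPM. The 9027 variable genes became 5283 with 4 counts as 1 molecule, 4229 with that and library shares within GC classes, and 5149 to 6528 with 1 library left out, where fewer samples enter the test. TMM, DESeq2 size factors and other filters stayed within 1.5 times of 9027. The biological coefficient of variation of 0.190 became 0.242 with no filter, 0.118 with counts divided by 4 and 0.182 to 0.196 with 1 library left out; the cause was not tested. The 1 run of neighbouring genes at 0 became 102 with reference genes that have no row. Of the recomputed list medians 412 moved by less than 1 SD and 196 by more.

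No paired analysis was possible because only the NC libraries were described, with no test between groups. Depth limits what is said of rare transcripts: under 100 counts the median coefficient of variation was 28.9%. Paralogs, pseudogene copies and overlapping records share reads, and antisense pairs cannot be separated without the strand setting. RNA without a poly(A) tail is under-represented. The spread covers 3 libraries of 1 line that share a batch label.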
